A study of Mus musculus with 12 samples.

Results

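Annexins and the S100 proteins that bind them were followed here in mouse renal cortex as a set of 10 genes: Anxa1, Anxa2, Anxa3, Anxa4, Anxa5, Anxa6, Anxa7, Anxa13, S100a10 and S100a11. They were chosen by gene name, with earlier results of these data known, from 19938 genes measured on 12 Affymetrix gene arrays. The shares over all genes given below are therefore a setting for the counts and not a test of the set. Each gene is represented by the probe set with exactly 1 gene symbol that had the highest mean over the 12 arrays. All 10 were found. The arrays fall into 4 groups of 3. Control mice carried floxed alleles of the glucocorticoid receptor gene (nr3c1 flox/flox), and GR-deficient mice carried the same alleles with Pax8-Cre (Pax8-Cre;nr3c1 flox/flox), so the flox alleles were common to all groups and the labels name no Cre in the control mice. Pax8-Cre acts in renal tubular epithelium and not in the leukocytes, endothelium and stroma that the cortex also contains, and a genotype difference includes any effect of the Cre itself. Each genotype was studied healthy, without injection, or 24 hours after an intramuscular injection of glycerol, which breaks down muscle and causes myoglobinuric acute kidney injury (AKI). The uninjected mice were a separate cohort, and the age of the mice is not given in the sources used here. The labels number the arrays of a group but do not say that each is a different mouse, so p-values reflect only how far these samples differ, a difference that may be technical. The question addressed is how the tubular glucocorticoid receptor bears on the cortical transcriptome at rest and after injury.

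Annexins are calcium-dependent proteins that bind negatively charged phospholipids, and they help to organise, fuse and reseal membranes. Some work together with small calcium-binding proteins of the S100 family: a dimer of S100a10 joins annexin A2 molecules into a complex that bridges membranes and binds plasminogen and its activator at the cell surface, and S100a11 is the partner of annexin A1. Annexin A1 was first known as lipocortin, a protein induced by glucocorticoids that restrains phospholipase A2 and acts on leukocytes through formyl peptide receptors.

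Values are log2 expression values, and each difference is a log2 difference with its standard error (SE) from the limma fit over all genes and a Benjamini-Hochberg adjusted p. A gene was called at an adjusted p below 0.05. Levels are compared between groups for 1 gene at a time and never between genes, because each probe set has its own brightness. The medians of the arrays lay between 7.001 and 7.092. Nr3c1, which checks the labels, lay between 8.82 and 9.65 on the 6 control arrays and between 7.87 and 8.21 on the 6 GR-deficient arrays. It was itself lower after AKI in control mice (-0.69 ± 0.097, adjusted p = 6.56e-05). The difference of GR-deficient from control mice in Nr3c1 was -1.38 ± 0.097 in healthy mice and -0.88 ± 0.097 after AKI. GR-deficient healthy replicate 1 stood apart in its injured tubule markers, a list of 7 genes with Havcr1, Lcn2 and Krt20 among them, whose mean level was 7.28 on this array and 6.53 and 6.42 on the other arrays of its group. The values of control AKI replicate 1 spread least, with an SD over genes of 1.88 against 1.96 to 2.06 on the other arrays. Of the proximal tubule markers, a list of 9 genes typical of the main epithelium of the cortex, the mean level in healthy control mice was 12.64 to 12.72, and it was 10.63 to 11 after AKI in control mice. In whole cortex, fewer cells of a type and less RNA per cell cannot be told apart.

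After AKI in control mice 8 of the 10 genes rose and Anxa13 fell, whereas Anxa6 was not called. Across all genes 13.6% were called higher and 15.1% lower in this comparison. The 3 AKI arrays lay wholly above or below the 3 healthy arrays for 9 of the 10 genes, which was so for 39.6% of all genes. The median difference was 0.81 for the 10 genes and 0.001 for all genes. Anxa3, Anxa2 and S100a10 had the largest increases, and the remaining increases were from 0.55 to 1.17. In GR-deficient mice the same injury raised 4 of the 10 genes, namely Anxa2, Anxa3, Anxa4 and S100a10, and lowered none, against 3.29% of all genes called higher. The groups did not overlap for 6 of the 10 genes, against 25.3% of all genes, and the median difference was 0.40 for the 10 genes and -0.026 for all genes.

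**Figure D1:**
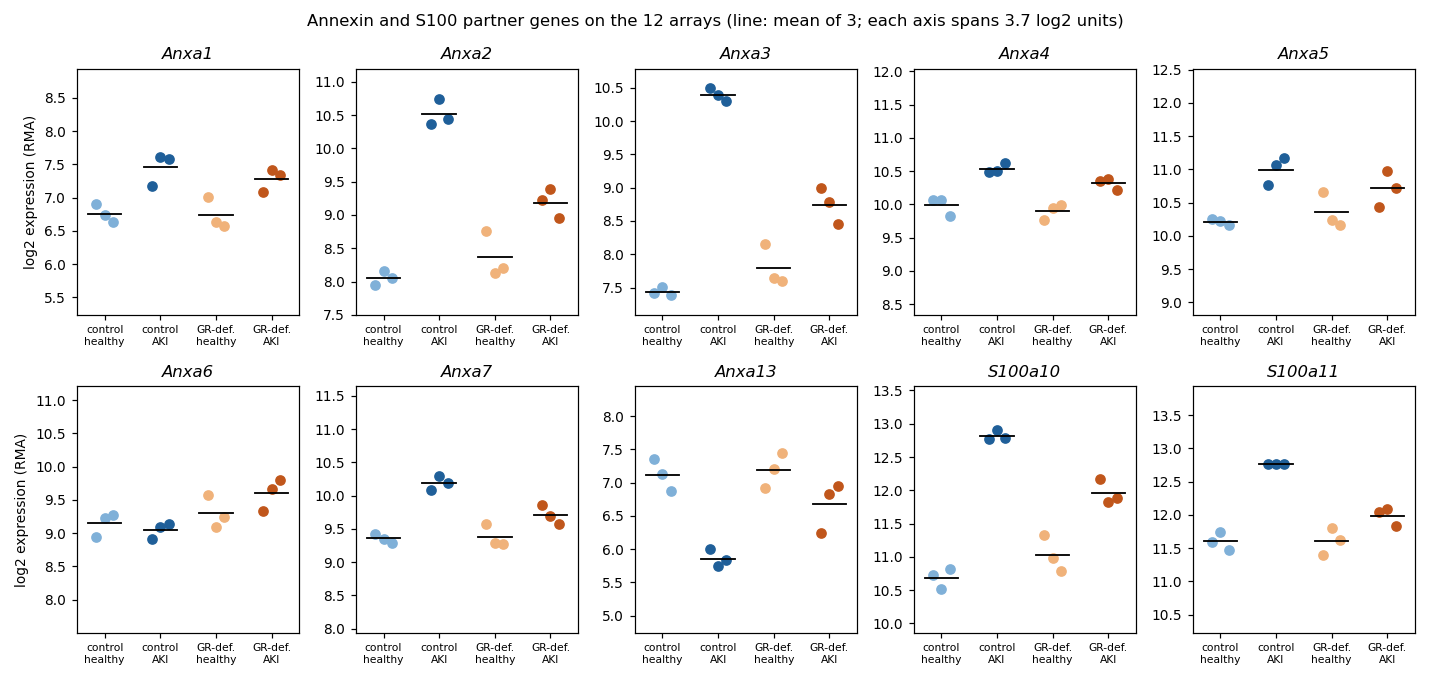
Log2 expression of the 10 genes on each of the 12 arrays, with 1 panel per gene, 1 point per array and a black line at the mean of the 3 arrays of a group. The control AKI arrays of Anxa2 (10.36 to 10.75), Anxa3 (10.30 to 10.50) and S100a10 (12.77 to 12.90) lie above all other arrays of these genes, and those of Anxa13 (5.74 to 6) lie below all others.

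Anxa2 encodes the annexin of the plasminogen-binding complex. On the arrays it stood at 7.95, 8.16 and 8.05 in healthy controls, 10.36, 10.75 and 10.44 in controls after AKI, 8.76, 8.13 and 8.20 in GR-deficient healthy cortex and 9.22, 9.39 and 8.95 in GR-deficient cortex after AKI. The control AKI arrays were highest, the GR-deficient AKI arrays came next without overlap, and the healthy groups overlapped at the bottom. The increase with AKI was 2.46 ± 0.167 in control mice, or 5.50-fold (adjusted p = 9.63e-08, limma, n = 3 per group). In GR-deficient mice it was 0.83 ± 0.167, or 1.77-fold (adjusted p = 0.0117), and this call was lost when any of GR-deficient AKI replicate 1 (adjusted p = 0.0655), AKI replicate 2 (0.0605) or healthy replicate 2 (0.0601) was left out.

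S100a10 encodes the S100 subunit of the same complex and also helps to carry several ion channels to the membrane. Its values were 10.73, 10.52 and 10.81 in healthy controls, 12.77, 12.90 and 12.78 in control AKI, 11.33, 10.98 and 10.79 in GR-deficient healthy cortex and 12.17, 11.82 and 11.89 in GR-deficient AKI. The order of the groups was that of Anxa2, again with overlap only between the healthy groups. AKI raised S100a10 by 2.13 ± 0.141 in control mice (4.38-fold, adjusted p = 7.94e-08) and by 0.92 ± 0.141 in GR-deficient mice (1.90-fold, adjusted p = 0.00219), and both calls held in each fit with 1 array left out.

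Anxa3 encodes an annexin that is found in neutrophils and in epithelia. It had values of 7.42, 7.51 and 7.38 in healthy controls, 10.50, 10.39 and 10.30 in control AKI, 8.15, 7.65 and 7.60 in GR-deficient healthy cortex and 9, 8.79 and 8.45 in GR-deficient AKI. No group overlapped another, and the healthy GR-deficient arrays lay just above the healthy control arrays. The increase with AKI was the largest of the 10 genes, 2.96 ± 0.155 in control mice (7.76-fold, adjusted p = 1.64e-08), and it was 0.95 ± 0.155 in GR-deficient mice (1.93-fold, adjusted p = 0.00372).

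S100a11 encodes the S100 partner of annexin A1. It stood at 12.77 on each of the 3 control AKI arrays, against 11.59, 11.75 and 11.48 in healthy controls, 11.39, 11.80 and 11.63 in GR-deficient healthy cortex and 12.05, 12.09 and 11.83 in GR-deficient AKI. The healthy groups overlapped, the GR-deficient AKI arrays lay above both and the control AKI arrays above these. AKI raised it by 1.17 ± 0.121 in control mice (2.25-fold, adjusted p = 3.89e-06), while the difference of 0.39 ± 0.121 in GR-deficient mice was not called (adjusted p = 0.0868), though its arrays did not overlap. The array holds another probe set for S100a11 with the same transcript accessions. Over all probe sets with 1 symbol, that probe set gave 1.13 ± 0.132 in control mice (adjusted p = 1.41e-05) and 0.43 ± 0.132 in GR-deficient mice (adjusted p = 0.0907), so both probe sets had the same calls, and near-identical copies of the gene cannot be told apart by them.

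Anxa1, the classical glucocorticoid-induced annexin, had values of 6.90, 6.74 and 6.63 in healthy controls, 7.18, 7.61 and 7.58 in control AKI, 7.01, 6.64 and 6.57 in GR-deficient healthy cortex and 7.08, 7.41 and 7.34 in GR-deficient AKI. The AKI arrays lay above the healthy arrays within each genotype, and the genotypes overlapped in both conditions. AKI raised it by 0.70 ± 0.149 in control mice (1.63-fold, adjusted p = 0.00207). The difference in GR-deficient mice, 0.54 ± 0.149, missed the threshold (adjusted p = 0.056) and passed it without GR-deficient healthy replicate 1 (0.67, adjusted p = 0.0301). It passed also after quantile normalization (adjusted p = 0.0488), with a filter on dim genes (0.0475), with a trend and robust prior (0.0411) and with array weights (0.00295).

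Anxa5, which binds phosphatidylserine exposed on dying cells, was at 10.16 to 10.26 in healthy control mice and 10.76 to 11.17 in control AKI, a rise of 0.79 ± 0.158 (adjusted p = 0.00142). In GR-deficient mice it was 10.17 to 10.66 healthy and 10.44 to 10.98 after AKI, which overlapped, and the difference of 0.35 ± 0.158 was not called (adjusted p = 0.249). It passed with array weights (0.43, adjusted p = 0.0346) and without both arrays that stand apart, GR-deficient healthy replicate 1 and control AKI replicate 1 (0.51, adjusted p = 0.042). Anxa7, or synexin, an annexin of granule and vesicle fusion, went from 9.29 to 9.43 in healthy control mice to 10.09 to 10.30 in AKI, a rise of 0.83 ± 0.115 (1.78-fold, adjusted p = 5.38e-05). Its difference in GR-deficient mice was 0.33 ± 0.115 (adjusted p = 0.126), and it too passed with array weights (adjusted p = 0.00531) and without both of those arrays (adjusted p = 0.0271). Anxa4, an annexin abundant in epithelia, rose from 9.83 to 10.07 in healthy control mice to 10.48 to 10.62 in AKI, by 0.55 ± 0.107 (adjusted p = 0.0011). In GR-deficient mice Anxa4 rose by 0.42 ± 0.107 (1.34-fold, adjusted p = 0.038) without overlap of the arrays, but the call was lost in 5 of the 6 fits with 1 array left out (adjusted p from 0.0514 to 0.171 without GR-deficient AKI replicates 1, 2 or 3 or healthy replicates 1 or 2), and with the replicate number as a block (adjusted p = 0.0709).

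Anxa13 and Anxa6 did not follow the others. Anxa13, an annexin of polarised epithelium in gut and kidney, was at 7.35, 7.13 and 6.87 in healthy controls, 6, 5.74 and 5.83 in control AKI, 6.92, 7.20 and 7.45 in GR-deficient healthy cortex and 6.24, 6.83 and 6.95 in GR-deficient AKI. The control AKI arrays were lowest and stood clear of the others, while the remaining groups overlapped. It fell by 1.26 on the log2 scale (SE 0.185) in control mice (2.39-fold, adjusted p = 9.85e-05), and the difference of -0.52 ± 0.185 in GR-deficient mice was not called (adjusted p = 0.138), though it was with array weights (-0.64, adjusted p = 0.0188). Anxa6, a large annexin with a duplicated core, was at 8.95 to 9.28 in healthy control mice and 8.91 to 9.14 in control AKI, a difference of -0.11 ± 0.152 (adjusted p = 0.708). In GR-deficient mice it was 9.09 to 9.58 healthy and 9.33 to 9.80 after AKI, a difference of 0.30 ± 0.152 (adjusted p = 0.32), so AKI was not shown to alter Anxa6 in either genotype, with 95% confidence intervals of -0.43 to 0.22 and -0.03 to 0.62.

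**Figure D2:**
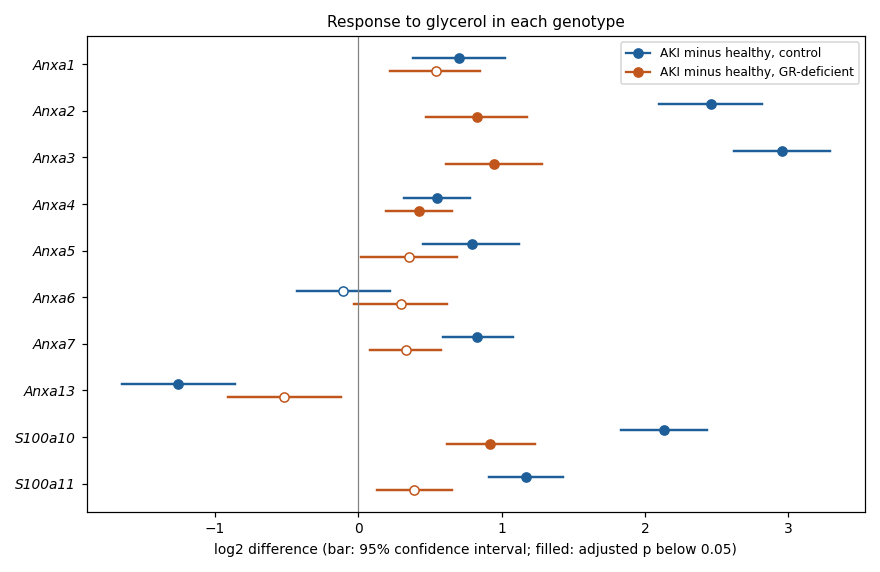
Log2 difference between AKI and healthy cortex for each of the 10 genes, in control (blue) and GR-deficient (orange) mice, with 95% confidence intervals and filled points for an adjusted p below 0.05. The intervals of Anxa2 (2.10 to 2.82 in control and 0.47 to 1.18 in GR-deficient mice), Anxa3 and S100a10 are well separated between the genotypes, and those of Anxa1 and Anxa4 overlap widely.

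The difference between these responses was tested as the interaction of genotype and AKI, that is, the response of GR-deficient mice minus that of control mice. It was called for 4 of the 10 genes, all of them negative, against 4.06% of all genes with a negative call. The interaction was -2.01 ± 0.22 for Anxa3 (adjusted p = 1.03e-04), -1.63 ± 0.236 for Anxa2 (adjusted p = 5.72e-04), -1.21 ± 0.199 for S100a10 (adjusted p = 0.00134) and -0.78 ± 0.171 for S100a11 (adjusted p = 0.00837). Each of these 4 calls held in all 12 fits with 1 array left out. The response of GR-deficient mice was 32.0% of that of control mice for Anxa3, 33.6% for Anxa2, 33.2% for S100a11 and 43.4% for S100a10. Among genes without a called interaction, this share was 39.6% for Anxa7, 41.2% for Anxa13, 45.2% for Anxa5, 76.4% for Anxa1 and 76.8% for Anxa4. Anxa6, with no called response in control mice, is left out of these shares. For Anxa7 (-0.50 ± 0.162, adjusted p = 0.0608) and Anxa13 (0.74 ± 0.261, adjusted p = 0.0876) the interaction missed the threshold. Anxa7 passed after quantile normalization (adjusted p = 0.0191), with a trend and robust prior (0.0418), with array weights (0.00708), and without control AKI replicate 1 (0.0393) or GR-deficient AKI replicate 1 (0.0499). Anxa13 passed with array weights (0.0307) and without GR-deficient AKI replicate 1 (0.0186). For Anxa1 the interaction was -0.17 (95% confidence interval -0.62 to 0.28) and for Anxa4 -0.13 (-0.45 to 0.20), and both intervals include 0. The responses of Anxa1 and Anxa4 in control mice were small, so these intervals also leave room for a reduction in proportion to that of Anxa2. The intervals of Anxa5 (-0.91 to 0.05) and Anxa6 (-0.05 to 0.87) also include 0.

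Promoter windows of RefSeq, from 250 bases before to 50 bases after a gene's annotated start on GRCm38.p6, were at hand for 6 of the 10 genes. Anxa3, Anxa6, Anxa13 and S100a10 had none, so the motifs cannot be set beside the interactions of Anxa3 and S100a10. They were searched for TGANTCA, the site of AP-1 factors (its own reverse complement), for AGAACA on both strands, the core of a glucocorticoid receptor element, and for TATAAA on both strands. None of the 3 motifs overlaps another in the letters shown. TGANTCA occurred once in the window of Anxa2, at -95 from the start, and 2 times in that of S100a11, at -136 and -38. Of all 32851 promoter windows 7.81% held it and 0.46% held it 2 times or more. TGANTCA was not found in the windows of Anxa1, Anxa4, Anxa5 and Anxa7. AGAACA occurred, at 2 places, in 1 of 8 member windows, that of an alternative start of Anxa4, and in 19% of all windows. TATAAA occurred in the windows of Anxa1 (at -32) and Anxa2 (at -17), and in 13.6% of all windows. A match is a description of the letters and does not show that a factor binds there. The 250 bases before the start are shown for Anxa2 and S100a11, whose responses to AKI differed between the genotypes, and for Anxa1, whose response was not shown to differ, with the motifs in capitals.
Anxa2, chr9:69453433-69453682, plus strand: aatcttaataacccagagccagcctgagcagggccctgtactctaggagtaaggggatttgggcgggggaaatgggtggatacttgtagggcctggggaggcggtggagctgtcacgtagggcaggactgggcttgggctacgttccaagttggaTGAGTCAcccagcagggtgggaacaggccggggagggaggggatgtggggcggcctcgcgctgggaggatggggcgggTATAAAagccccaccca
S100a11, chr3:93520246-93520495, plus strand: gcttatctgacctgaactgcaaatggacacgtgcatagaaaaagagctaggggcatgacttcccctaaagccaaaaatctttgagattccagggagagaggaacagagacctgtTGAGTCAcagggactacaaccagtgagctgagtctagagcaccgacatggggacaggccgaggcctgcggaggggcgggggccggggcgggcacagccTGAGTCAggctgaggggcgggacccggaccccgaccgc
Anxa1, chr19:20390672-20390921, minus strand: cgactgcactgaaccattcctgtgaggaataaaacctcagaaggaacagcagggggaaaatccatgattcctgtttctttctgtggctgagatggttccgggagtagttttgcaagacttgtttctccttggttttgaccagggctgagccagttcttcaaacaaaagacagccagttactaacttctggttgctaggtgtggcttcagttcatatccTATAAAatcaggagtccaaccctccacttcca
In these letters Anxa2 has the AP-1 motif followed by TATAAA near the start, S100a11 has the AP-1 motif at 2 places and no TATAAA, and Anxa1 has TATAAA alone. S100a11 and S100a10 are next to each other among protein-coding genes on chromosome 3 in the RefSeq annotation of GRCm38.p6, between Tchhl1 and Tdpoz2.

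In healthy mice none of the 10 genes differed between the genotypes by the limma test, against 0.145% of all genes called. An unadjusted p below 0.05 was found for 2 of the 10, against 2124 of all 19938 genes. The 2 were S100a10 (0.35 ± 0.141, adjusted p = 0.397) and Anxa3 (0.36 ± 0.155, adjusted p = 0.425). The arrays did not overlap for 1 of the 10 genes, Anxa3, against 18.6% of all genes. GR-deficient healthy replicate 1, the array with the higher injured tubule markers, was the highest of its group for these genes and Anxa2. Without it the difference was 0.20 for S100a10, 0.19 for Anxa3 and 0.11 for Anxa2 (0.31 with it). Anxa1, at 6.63 to 6.90 in control and 6.57 to 7.01 in GR-deficient mice, differed by -0.02 with a 95% confidence interval of -0.34 to 0.30.

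After AKI the genotypes differed in 7 of the 10 genes. In GR-deficient mice 5 were lower, against 7.34% of all genes, and 2 were higher, against 10% of all genes. The arrays of the genotypes did not overlap for 8 of the 10, against 32.8% of all genes. This comparison shares the control AKI arrays with the AKI comparison in control mice and the GR-deficient AKI arrays with that in GR-deficient mice, so its values are not independent of those above. Anxa3 differed by -1.65 ± 0.155 (3.13-fold lower in GR-deficient mice, adjusted p = 7.54e-06), and Anxa2 differed by -1.33 ± 0.167 (2.51-fold lower, adjusted p = 7.51e-05). S100a10 differed by -0.86 ± 0.141 (adjusted p = 6.51e-04), S100a11 by -0.78 ± 0.121 (adjusted p = 4.09e-04) and Anxa7 by -0.48 ± 0.115 (adjusted p = 0.00851, and 0.0504 without GR-deficient AKI replicate 3). Anxa13 was higher by 0.81 ± 0.185 (adjusted p = 0.00628) and Anxa6 by 0.55 ± 0.152 (adjusted p = 0.0199). The call of Anxa6 was lost without control AKI replicate 1 (adjusted p = 0.0618), GR-deficient AKI replicate 2 (0.0754) or replicate 3 (0.0982), and another, dimmer probe set of Anxa6 gave -0.21 ± 0.189 over all probe sets (adjusted p = 0.529). The probe sets of Anxa6, which do not share all their annotated transcripts, thus disagree in sign. Anxa1 (-0.18 ± 0.149, adjusted p = 0.479), Anxa4 (-0.22 ± 0.107, adjusted p = 0.206) and Anxa5 (-0.29 ± 0.158, adjusted p = 0.268) were not called. With array weights Anxa1 (-0.34, adjusted p = 0.0142) and Anxa5 (-0.37, adjusted p = 0.0184) were.

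**Figure D3:**
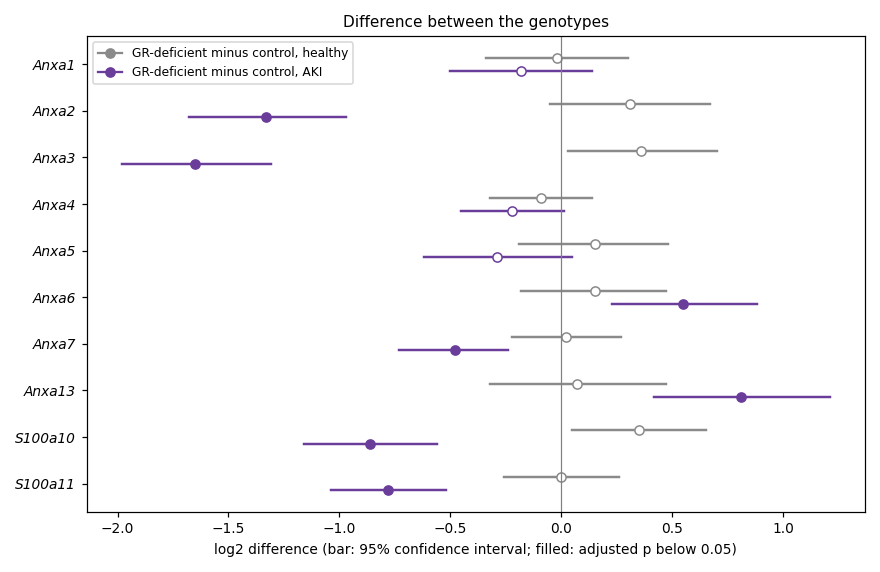
Log2 difference between GR-deficient and control mice for each of the 10 genes, in healthy cortex (grey) and after AKI (purple), with 95% confidence intervals and filled points for an adjusted p below 0.05. None of the 10 points is filled in healthy mice, and 7 are filled after AKI, with Anxa6 (0.55) and Anxa13 (0.81) to the right of 0 and the other 5 to the left.

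The known partners were also compared by their profiles over the 12 arrays. The measure was the root mean square difference in log2 after each gene was centred on its own mean. It is small where genes move together and by the same amount, and also where both move little. A small value between genes that move little therefore does not show that they move together. Anxa2 and S100a10 differed by 0.25, and S100a10 was 13th and Anxa2 23rd in the order of likeness to the other among 19937 genes. Anxa2 and Anxa3 differed by 0.24, with Anxa3 the 10th nearest gene to Anxa2 and Anxa2 the 5th nearest to Anxa3. Anxa1 and S100a11 differed by 0.32, with S100a11 at place 3484 for Anxa1 and Anxa1 at place 1389 for S100a11. The nearest gene to Anxa1 was Anxa5 and the nearest to Anxa5 was Anxa1, with a difference of 0.10. These places describe 12 arrays in 4 groups, in which many genes move with AKI.

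Predicted genes, clone names, microRNAs and snoRNAs were left out of the search for the nearest genes that follow, though not of the places above. Outside the annexins and their partners, the genes most like Anxa2 were Slc25a24 (0.14), a mitochondrial carrier of ATP-Mg and phosphate, Tinagl1 (0.15), a matrix protein, and Sfn (0.17), also known as 14-3-3 sigma. Slc25a24 (0.15) was nearest to Anxa3 too, followed by Mlkl (0.19), the executor of necroptosis, and Ifrd1 (0.21). For S100a10 they were Serpinb6a (0.15), an intracellular serpin, Tinagl1 (0.15) and the metallothionein Mt1 (0.17), and for S100a11 Zdhhc18 (0.09), Wdr43 (0.09) and Pum3 (0.10). The genes nearest to Anxa13 were Tmem64, Abca9 and Slc26a4, each at 0.19. Slc26a4 encodes pendrin, the anion exchanger of intercalated cells.

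The other members of both families were counted too. Of the 4 other annexins, Anxa8, Anxa9, Anxa10 and Anxa11, none was called with AKI in either genotype, with a median difference of 0.05 in control mice. Among all genes 28.7% were called in control and 4.64% in GR-deficient mice, in either direction. Anxa11, a partner of the calcium sensor ALG-2, differed by -0.25 ± 0.112 in control mice (adjusted p = 0.119) and 0.30 ± 0.112 in GR-deficient mice (adjusted p = 0.153). Its interaction was called (0.56 ± 0.159, adjusted p = 0.0344). Between genotypes Anxa11 differed by -0.55 ± 0.112 in healthy mice, not called (adjusted p = 0.0736) but without overlap of the arrays, as for 18.6% of all genes. After AKI its genotype difference was 0.01 ± 0.112 (adjusted p = 0.982). Anxa9 was the 1 of the 4 called between genotypes after AKI, lower in GR-deficient mice (-0.39 ± 0.113, adjusted p = 0.0268), against 7.34% of all genes. Among 14 other S100 genes 5 rose and 2 fell with AKI in control mice, with a median of 0.16. The shares of all genes were 13.6% higher and 15.1% lower. None of the 14 was called in GR-deficient mice, which is near the 4.64% of all genes. S100a8 (2.05 ± 0.202, adjusted p = 2.43e-06) and S100a9 (1.76 ± 0.18, adjusted p = 3.56e-06), the subunits of calprotectin and also markers of neutrophils, rose in control mice. S100a6 (2.08 ± 0.315, adjusted p = 1.29e-04), or calcyclin, a known ligand of annexins, rose as well. It was at 6.87, 7.58 and 6.5 in healthy controls, 8.61, 9.44 and 9.16 in control AKI, 8.49, 7.49 and 7.19 in GR-deficient healthy cortex and 8.50, 8.86 and 8.49 in GR-deficient AKI. Its response in GR-deficient mice (0.89 ± 0.315, adjusted p = 0.135) and its interaction (-1.19 ± 0.446, adjusted p = 0.108) were not called. The interactions of S100a8 (-1.50 ± 0.286, adjusted p = 0.00346) and S100a9 (-1.21 ± 0.255, adjusted p = 0.00646) were called. These were the 2 negative calls among the 14 genes, against 4.06% of all genes.

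A list of 19 genes that bind annexins or take part in membrane repair had 9 members higher and none lower with AKI in control mice, with a median of 0.40, against 13.6% of all genes called higher. In GR-deficient mice 3 were higher, with a median of 0.12, against 3.29% of all genes. A negative interaction was called for 5, against 4.06% of all genes. Cd44, the hyaluronan receptor and also 1 of the injured tubule markers (1.30 ± 0.118, adjusted p = 1.12e-06), and Capn2, the large subunit of m-calpain (1.11 ± 0.11, adjusted p = 2.52e-06), were among those that rose in control mice. Their interactions were -1.05 ± 0.167 (adjusted p = 0.00106) and -0.77 ± 0.155 (adjusted p = 0.00497). Chmp4b, a subunit of the ESCRT-III filament that reseals membrane, had an interaction of -0.75 ± 0.145 (adjusted p = 0.00384) and Ahnak, a giant scaffold bound by the annexin A2 complex, of -1.20 ± 0.244 (adjusted p = 0.00526). Ahnak was at 7.82, 8.06 and 7.84 in healthy controls, 8.91, 9.42 and 8.95 in control AKI, 8.82, 8.17 and 8.24 in GR-deficient healthy cortex and 8.30, 8.56 and 8.35 in GR-deficient AKI. Only its control arrays were clear of each other between healthy and AKI, and the highest healthy GR-deficient array was again replicate 1. Myof, or myoferlin, rose in both genotypes, by 1.56 ± 0.161 in control (adjusted p = 3.82e-06) and 1.29 ± 0.161 in GR-deficient mice (adjusted p = 5.49e-04), and its interaction was not called (-0.27 ± 0.228, adjusted p = 0.533). The other members called higher in GR-deficient mice were Ehd2 (0.66 ± 0.131, adjusted p = 0.01) and Pdcd6ip (0.64 ± 0.155, adjusted p = 0.0311), which encode a membrane-remodelling ATPase and the ESCRT adaptor ALIX.

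**Figure D4:**
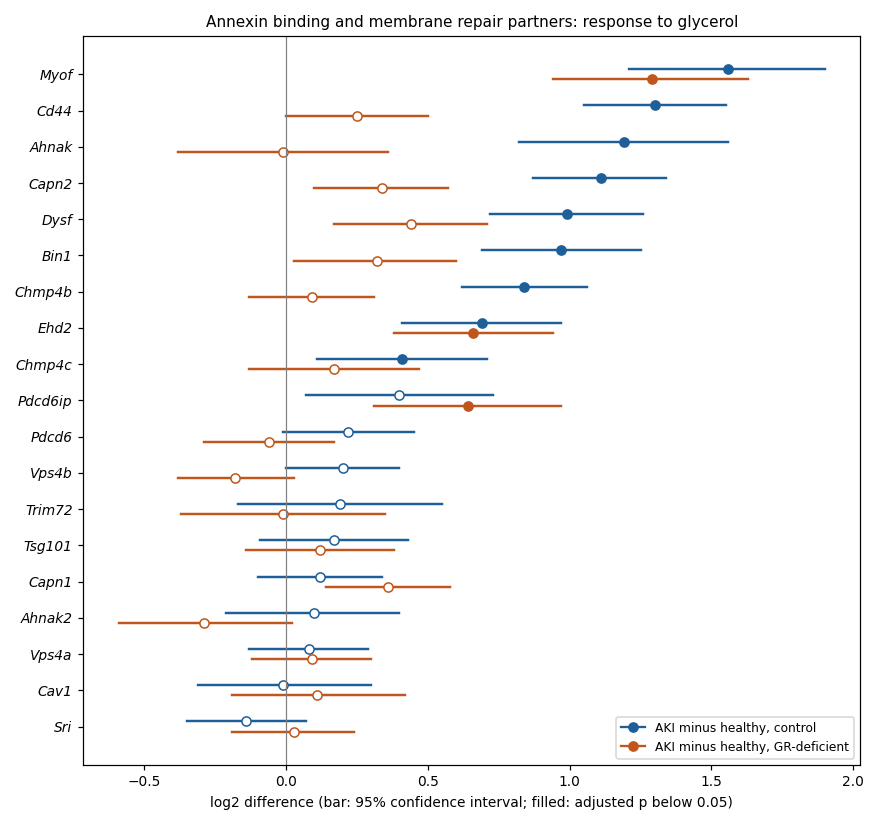
Log2 difference between AKI and healthy cortex for 19 genes that bind annexins or repair membrane, in control (blue) and GR-deficient (orange) mice, with 95% confidence intervals and filled points for an adjusted p below 0.05, ordered by the control difference. In control mice 9 points are filled, from Myof (1.56) down to Chmp4c (0.41), and in GR-deficient mice 3 are filled (Myof, Ehd2 and Pdcd6ip).

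At the cell surface, 7 of 12 listed genes for annexin receptors and plasmin generation had a probe set of their own, and 2 rose with AKI in control mice, against 13.6% of all genes. Plaur, the urokinase receptor, rose by 3.53 ± 0.232 in control mice (adjusted p = 7.56e-08) and by 1.30 ± 0.232 in GR-deficient mice (adjusted p = 0.00603), with an interaction of -2.24 ± 0.329 (adjusted p = 6.37e-04). Plat, the tissue plasminogen activator that the annexin A2 complex binds, was at 8.81 to 8.97 in healthy control mice and 10.07 to 10.27 in control AKI, a rise of 1.29 ± 0.102 (adjusted p = 3.25e-07). In GR-deficient mice it was at 9.05 to 9.18 healthy and 9.13 to 9.34 after AKI, a difference of 0.16 ± 0.102 (adjusted p = 0.461), and its interaction was -1.13 ± 0.144 (adjusted p = 2.51e-04). Plg (0.03 ± 0.135, adjusted p = 0.935) and Plau (-0.34 ± 0.166, adjusted p = 0.154) were not called in control mice. The formyl peptide receptor genes Fpr1 and Fpr2 were not analysed here. Of 11 phospholipase A2 genes 3 rose and 1 fell in control mice, with a median of 0.07, and none was called in GR-deficient mice. Over all genes 28.7% were called in control mice and 4.64% in GR-deficient mice, in either direction. The phospholipase A2 counts are thus not far from those of genes in general. Pla2g2e rose by 1.12 ± 0.104 (adjusted p = 1.47e-06) with an interaction of -0.86 ± 0.148 (adjusted p = 0.00173). Pla2g5 fell by 0.78 on the log2 scale (SE 0.137, adjusted p = 4.93e-04) with an interaction of 1.02 ± 0.194 (adjusted p = 0.00327).

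Some lists of markers, those of injured tubule and neutrophils among them, moved with AKI and genotype as several annexins did, and others did not. Of all genes 13.6% were called higher and 15.1% lower with AKI in control mice, and 3.29% higher and 1.35% lower in GR-deficient mice. Between GR-deficient and control AKI 10% were higher and 7.34% lower. The macrophage counts in control mice, and an absence of calls in a list in GR-deficient mice, are near these shares. The mean level of the 7 injured tubule markers was 6.45 to 6.55 in healthy controls, 10.13 to 10.23 in control AKI, 6.42 to 7.28 in GR-deficient healthy cortex and 7.82 to 8.70 in GR-deficient AKI. Of these 7, 6 rose with AKI in control mice and 4 in GR-deficient mice, and 6 were lower and 1 higher in GR-deficient than in control AKI. Of 11 neutrophil markers 8 rose with AKI in control mice and none was called in GR-deficient mice, and 7 were lower in GR-deficient than in control AKI. Their mean level was 5.15 to 5.36 in healthy controls, 6.03 to 6.32 in control AKI, 5.26 to 5.38 in GR-deficient healthy cortex and 5.34 to 5.60 in GR-deficient AKI. Ly6g, Ngp and Camp, which are typical of neutrophils, were not called with AKI in control mice (adjusted p from 0.431 to 0.978). Of 11 measured macrophage markers 2 rose, Cd68 and Itgam, and Csf1r fell, and the mean level of the list was 7.19 to 7.33 in healthy and 7.35 to 7.60 in AKI control mice and 7.19 to 7.48 in GR-deficient AKI. The proximal tubule list had all 9 genes lower with AKI in control mice and 2 lower in GR-deficient mice. All 9 were higher in GR-deficient than in control AKI, with a mean level of 11.94 to 12.19 against 10.63 to 11. Of 9 collecting duct and distal markers 6 were lower with AKI in control and 3 in GR-deficient mice. Of 8 fibroblast and mural markers 5 rose and 1 fell with AKI in control mice, with a median of 0.45, and 2 rose in GR-deficient mice, and their mean level after AKI was 8.78 to 8.99 in control and 8.84 to 8.86 in GR-deficient mice. Of 9 endothelium markers 4 rose and 2 fell in control mice and none was called in GR-deficient mice. Of 9 lymphocyte markers none was called in either genotype. The part that proximal tubule, injured epithelium, neutrophils or macrophages had in the annexin values was not tested.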

How the data were processed

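Renal cortex RNA of 12 samples, 3 in each of 4 groups taken from the sample labels, was measured on Affymetrix mouse gene arrays. The authors deposited log2 expression values. The submitters' processing notes name RMA, affy and oligo, without versions. As a method, RMA subtracts background, brings the arrays to 1 distribution and combines the probes of a probe set. The log base is not stated, and the highest value per array, 14.73 to 14.90, fits log2. The values were used as deposited.

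Of 35556 probe sets, 21789 had exactly 1 gene symbol in the platform annotation, which gave 19938 genes by the highest mean, with no filter on dim genes. Of the 10 genes, 2 (Anxa6 and S100a11) had another such probe set, and all 10 symbols were in the RefSeq table. The planned protein comparison was not made, as no protein sequences were used here.

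Differences were tested with limma 3.58.1 in R 4.3.3 (lmFit and eBayes, 4 group means, 8 residual and 6.26 prior degrees of freedom), two-sided, with Benjamini-Hochberg adjustment over 19938 genes within each of 5 contrasts and a threshold of 0.05. The fit was tested on simulated data of the same size first. The number of arrays limits the precision.

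Alternatives were quantile normalization, a filter on dim genes (above 5 on at least 3 arrays), a trend and robust prior, array weights, all probe sets, the replicate number as a block, each array left out, and, chosen after seeing the data, 2 arrays that stand apart left out together. With all probe sets, a gene was given the mean difference and the smallest adjusted p of its probe sets. A probe set that disagreed could therefore not remove a call under that alternative. The genes named beyond the 10 are Nr3c1, up to 4 of each listed group with the smallest p, the 3 nearest in profile to each gene whose group means span at least 1, and others (Plg, Plau and single marker genes among them) chosen after their values were seen. The members and the lists were chosen with earlier results of these data known.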

Additional observations from a re-analysis of the deposited data

Results flagged for a closer look

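The responses of 4 of the 10 genes to AKI differed between the genotypes by the test of the interaction itself. For Anxa3 the response of GR-deficient mice minus that of control mice was -2.01, with 2.96 in control and 0.95 in GR-deficient mice. For Anxa2 it was -1.63, with 2.46 and 0.83. For S100a10 it was -1.21, with 2.13 and 0.92, and for S100a11 it was -0.78, with 1.17 and 0.39. With 1 array left out, these values ranged from -2.14 to -1.84 for Anxa3, from -1.75 to -1.44 for Anxa2, from -1.33 to -1.06 for S100a10 and from -0.89 to -0.68 for S100a11. The injured tubule markers had a median interaction of -2.29 over 7 genes and the neutrophil markers of -0.70 over 11. For the proximal tubule markers it was 1.43 over 9 genes. The part of any of these lists in the differences was not tested.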

How the results depend on the processing

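The count of called genes after AKI in control mice was 9 under every alternative run. In GR-deficient mice it was 4, and 8 with array weights (7 higher and 1 lower), 3 with the replicate number as a block, and from 2 to 4 with 1 array left out (2 without GR-deficient AKI replicate 1, AKI replicate 2 or healthy replicate 2). It was 6 without GR-deficient healthy replicate 1 and control AKI replicate 1 together. Between genotypes after AKI the count was 7, from 5 to 7 with 1 array left out and 9 with array weights. For the interaction it was 4, and from 4 to 6. In healthy mice it was 0 throughout.

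Taken alone, the other probe set of Anxa6 differed in sign from the one used in several contrasts. It gave 0.07 against -0.11 for AKI in control mice and -0.18 against 0.15 between genotypes in healthy mice. After AKI the genotypes differed by -0.21 against 0.55, and the interaction was -0.03 against 0.41. Under the alternatives, none of which used that probe set alone, signs changed only for the genotype difference in healthy mice, among uncalled values near 0. Quantile normalization gave 0.02 for S100a11. Array weights gave -0.0011 for Anxa6, -0.04 for Anxa7 and 0.13 for S100a11. All probe sets gave -0.02 for Anxa6. Leaving out 1 array gave values from -0.15 to 0.07 for Anxa1 (0.06 without healthy control replicate 1, and 0.03 and 0.07 without GR-deficient healthy replicates 2 and 3), from -0.01 to 0.24 for Anxa5, from -0.08 to 0.07 for Anxa7 (-0.01 without healthy control replicate 3), from -0.06 to 0.21 for Anxa13 (-0.05 without healthy control replicate 3) and from -0.10 to 0.11 for S100a11 (0.07 without healthy control replicate 2). Without both arrays that stand apart the values were -0.01 for Anxa5, -0.08 for Anxa7 and 0.11 for S100a11. The cause was not tested.

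With the replicate block, 1 call changed, that of Anxa4 in GR-deficient mice (adjusted p = 0.0709). Same-numbered arrays did not deviate together: of 18 pairs, 3 had a correlation of deviations over 0.1, and the range was -0.41 to 0.25. The number of arrays, 3 per group, limits the size of difference that can be called.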
